A study of Oncorhynchus mykiss with 6 samples.

Results

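Genes that are known to mark or build the yellow and the reflecting pigment cells of fish were compared between dorsal skin of yellow mutant and wild-type rainbow trout (Oncorhynchus mykiss). The 10 genes are csf1r, pax7, slc2a11, slc2a15, ltk, alkal2, pnp4a, fhl2, mpv17 and gbx2. A locus counted as a member when its deposited symbol was one of these names, or when its product name was that of csf1r, pax7, slc2a11, ltk or a purine nucleoside phosphorylase (PNP), so the rule itself reads names and not expression values. The rule found 31 of 41818 loci: 7 by symbol and product name, 11 by symbol alone and 13 by product name alone. They comprise 1 csf1r locus, 3 pax7 loci, 6 slc2a11 loci, 1 ltk locus, 1 alkal2 locus, 10 PNP loci, 5 fhl2 loci, 2 mpv17 loci and 2 gbx2 loci, and none for slc2a15. Names of the NCBI RefSeq gene table differ from the deposited ones at some members: the ltk locus is deposited as Alk, slc2a11l as SLC2A9 and fhl5 as FHL2. A further 5 loci have related names outside the rule and are given apart from the members. They are 3 loci with the symbol csf1r1, slc2a15a (deposited as SLC2A9) and a FAM150B-like locus (FAM150B is an older name of ALKAL2). The csf1r1 locus ncbi_110534179 has the product name macrophage colony stimulating factor receptor-2b, so the csf1r1 loci may be different genes.

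RNA from dorsal skin was sequenced in 6 libraries, 3 from the yellow mutant and 3 from the wild type, all at an age of 45 days. The labels give the phenotype but no strain, allele or cause of the yellow color, and skin is a mixture of cells, so fewer cells of a type and less RNA per cell cannot be told apart. Separate fish per library are not stated either, so the p-values reflect variation among these libraries only, and that variation may be technical.

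Xanthophores hold yellow to orange pteridines and carotenoids, and iridophores hold stacks of guanine crystals that reflect light. Both descend from the neural crest, as melanophores do. In zebrafish, xanthophores depend on the receptor tyrosine kinase Csf1r and on Pax7 transcription factors, whereas iridophores depend on the receptor Ltk and its Alkal ligands. PNP enzymes act on the purine nucleosides from which guanine is obtained, and zebrafish mutant for mpv17, which encodes a mitochondrial membrane protein, lack most iridophores.

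Total counts per library ran from 15059101 to 19031878, and 30691 loci were abundant enough to be tested. Levels are given as counts relative to library size (CPM) scaled with TMM factors, which lay between 1.06 and 1.08 in yellow mutant libraries and between 0.920 and 0.950 in wild-type libraries. Changes are log2 fold changes of yellow mutant over wild type, each with its standard error (SE), and the adjusted p-values come from edgeR's quasi-likelihood test with Benjamini-Hochberg adjustment over all tested genes. Over all tested genes, the median log2 change was -0.003 with TMM and 0.20 when libraries were scaled by their totals alone. Epidermis markers were abundant in every library, as the tissue label says, at a summed 33303 to 37016 CPM in the yellow mutant and 83060 to 87437 CPM in the wild type, with 2 of 45 tested loci higher and 33 lower. Melanophore markers summed to 1147 to 1372 CPM in the yellow mutant and 512 to 602 CPM in the wild type, with 13 of 15 tested loci higher and 0 lower (0 also at an unadjusted p under 0.05, with DESeq2 and with library totals). The part of these shifts in the results below was not tested.

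Of the 31 members, 20 passed the filter on low counts. In the yellow mutant 9 rose, 1 fell and 10 did not pass the test. The 9 that rose make 45.0% of the tested members, where 21.7% of all tested genes were higher. The 1 that fell makes 5%, where 23.1% of all tested genes were lower. The 10 called members stand against a background of 44.8% of genes called in either direction. All yellow mutant libraries were above all wild-type libraries at 10 members (26.8% of all tested genes) and below them at 1 (27.6%), and the groups overlapped at 9. The median log2 fold change of the tested members was 0.26. With library totals alone, 13 members were called higher and 1 lower, against 35.2% and 14.8% of all tested genes. In the main edgeR fit (TMM, all 6 libraries, no covariates), the increases fell on the transporter gene slc2a11, on 3 fhl2 loci, on 3 PNP loci and on csf1r. Neither that fit nor DESeq2 put a locus of pax7, ltk, alkal2 or mpv17 past the threshold. Of their 6 tested loci 1, a pax7 locus, had an unadjusted p under 0.05 in the main fit. With edgeR on library totals, that pax7 locus (adjusted p = 0.00168) and ltk (adjusted p = 0.0104) passed.

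**Figure D1:**
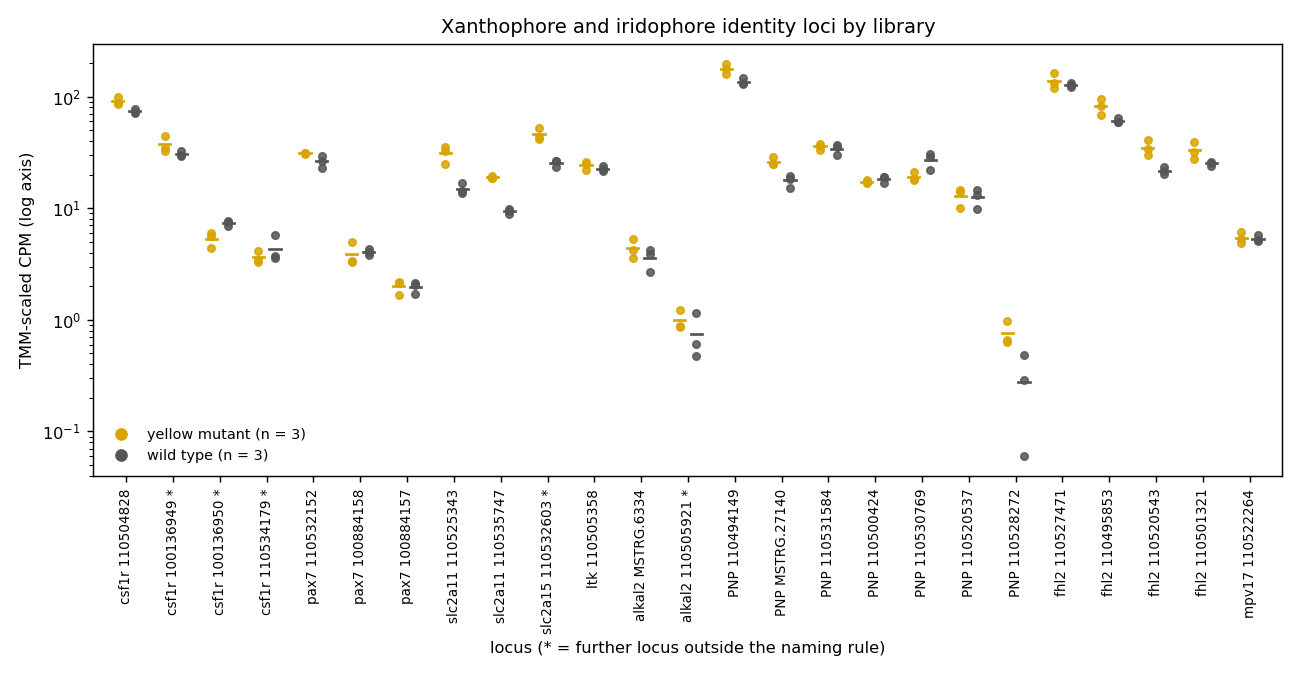
Level of each tested locus as TMM-scaled CPM on a log axis, with yellow mutant libraries left and wild-type libraries right. Points are libraries, bars are means of 3 libraries, and an asterisk marks the further loci. Both slc2a11 loci and slc2a15a show a gap between the phenotypes, whereas ltk, mpv17 and most pax7 loci overlap.

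Among the receptors, csf1r rose and ltk did not pass. The member csf1r1 locus ncbi_110504828 stood at 99.8, 88.0 and 86.4 CPM in yellow mutant libraries, against 77.5, 70.8 and 73.4 CPM in wild-type libraries. Every yellow mutant library was above every wild-type library, and the log2 fold change was 0.31 (SE 0.081, adjusted p = 0.00763). The other csf1r1 loci, which lie outside the rule, went different ways. Locus ncbi_100136949 stood at 44.3, 34.9 and 32.7 CPM in the yellow mutant and 29.9, 29.2 and 32.2 CPM in the wild type (log2 change 0.29, SE 0.11, adjusted p = 0.0408). That call was lost in DESeq2 (adjusted p = 0.0658), without any single wild-type library (0.0533 to 0.127) and without yellow mutant replicate 1, where the log2 fold change was 0.16 (adjusted p = 0.185). Locus ncbi_100136950 fell, with 5.95, 4.4 and 5.68 CPM in the yellow mutant and 7.45, 6.87 and 7.75 CPM in the wild type (change on the log2 scale -0.47, SE 0.15, adjusted p = 0.0229). It lost this call in 9 of 16 alternatives (adjusted p from 0.0512 to 0.184), among them library totals and the fits without wild-type replicate 1, wild-type replicate 3 or yellow mutant replicate 2. Locus ncbi_110534179 did not pass (log2 fold change -0.27, SE 0.21, adjusted p = 0.333).

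Csf1r is also the receptor of macrophages. Of 27 tested macrophage and leukocyte loci 3 were higher and 8 lower, and their summed level ran from 437 to 454 CPM in the yellow mutant and from 457 to 501 CPM in the wild type. The most abundant of them encode the leukocyte actin-bundling protein lcp1 (log2 fold changes of -0.08 and -0.18, neither past the threshold), the macrophage pore protein MPEG1 (0.07, not past it, and 0.27 with adjusted p = 0.0284 with library totals) and the leukocyte phosphatase ptprc (-0.31, adjusted p = 0.013). The ptprc call was lost in 8 of 16 alternatives (adjusted p 0.0513 to 0.378), among them library totals and the fits without yellow mutant replicate 1 or 2 or wild-type replicate 2, and the lcp1 locus at -0.18 passed with the stricter count filter (adjusted p = 0.0456). Among 31 such loci, 1 listed under havcr1 had no count. The part of these cells in the csf1r values was not tested.

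The ligands of Csf1r differed from each other. The locus that RefSeq names csf1 (ncbi_100136089) rose, with 53.0, 43.4 and 47.1 CPM in yellow mutant libraries and 22.8, 19.2 and 24.2 CPM in wild-type libraries (log2 fold change 1.11, SE 0.10, adjusted p = 1.8e-06). Its groups lay far apart, at 2.16-fold. The remaining ligand loci are named after their values were seen: csf1a (ncbi_110528367) fell by 0.57 on the log2 scale (SE 0.18, adjusted p = 0.021) and csf1-2 (ncbi_100301638) by 0.32 (SE 0.12, adjusted p = 0.0453). The csf1a call was lost in 8 of 16 alternatives (adjusted p 0.0591 to 0.173), among them the fits that left out yellow mutant replicate 2 or wild-type replicate 1, and the csf1-2 call in 10 of 16 (0.0582 to 0.431), among them those without wild-type replicate 2 or 3 or yellow mutant replicate 2 or 3. Library totals and DESeq2 ended both. A csf1 locus too low to be tested (ncbi_110533011) had 3 counts in the yellow mutant, all in replicate 3, and 31 in the wild type. The other Csf1r ligand, il34, did not pass (-0.22, SE 0.18, adjusted p = 0.367).

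The ltk locus ncbi_110505358, which encodes the kinase on which zebrafish iridophores depend, stood at 25.8, 25.1 and 22.0 CPM in yellow mutant libraries and 21.5, 23.8 and 22.2 CPM in wild-type libraries. The groups overlapped, and the log2 fold change was 0.11 (SE 0.090, adjusted p = 0.344). It passed with library totals (0.31, adjusted p = 0.0104) and in the 4 limma fits on FPKM (adjusted p 0.033 to 0.0389), scalings under which the median of all genes was also above 0. Its ligand gene alkal2 (MSTRG.6334) stood at 5.26, 3.57 and 4.25 CPM in the yellow mutant and 3.88, 4.22 and 2.66 CPM in the wild type, also overlapping (log2 fold change 0.28, SE 0.22, adjusted p = 0.312). The FAM150B-like locus (ncbi_110505921) had 57 counts in the yellow mutant and 34 in the wild type (0.45, SE 0.39, adjusted p = 0.373). Of the 2 most abundant relatives of these receptors, pdgfra rose by 0.30 (SE 0.080, adjusted p = 0.00827) and Alk (ncbi_110498079) fell by 0.36 (SE 0.090, adjusted p = 0.00538), a call lost with library totals and in the 4 limma fits (adjusted p 0.145 to 0.251). Another Alk locus, ncbi_110506268, named after its values were seen, rose by 0.68 (SE 0.17, adjusted p = 0.0059). Over all 28 tested receptor ligands and relatives, 6 were higher and 10 lower, and the median log2 change was -0.27. Of the 4 most abundant of them, jag1b was at -0.77 (SE 0.15, adjusted p = 0.000942).

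No pax7 locus passed in the main edgeR fit (0 of 3, with 1 at an unadjusted p under 0.05, and 0 with DESeq2). Pax7 is a paired-box transcription factor of xanthophore precursors and of muscle satellite cells. The most abundant locus, ncbi_110532152, stood at 30.8, 31.3 and 31.0 CPM in yellow mutant libraries and 26.7, 22.7 and 29.5 CPM in wild-type libraries. These groups did not overlap, yet the log2 fold change of 0.24 missed the threshold (SE 0.094, adjusted p = 0.0568). It passed without wild-type replicate 3 (0.32, adjusted p = 0.0206), with library totals (0.43, adjusted p = 0.00168) and in the 4 limma fits (adjusted p 0.0225 to 0.0232). The copies that RefSeq names pax7a and pax7b overlapped between phenotypes, at log2 fold changes of -0.07 (SE 0.20, adjusted p = 0.792) and 0.03 (SE 0.24, adjusted p = 0.943); the sign of pax7a was positive with library totals (0.12). Of 27 tested muscle and satellite cell loci, 2 were higher and 9 lower, and their summed level ran from 10855 to 16334 CPM in the yellow mutant and from 14454 to 17523 CPM in the wild type. A locus listed under myod1 had no count. The part of muscle in the pax7 values was not tested. The 2 gbx2 loci, which encode homeobox factors, held 4 and 1 counts in the yellow mutant, against 1 and 1 in the wild type, too few for a comparison.

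The transporter gene slc2a11 gave the largest log2 fold changes of the tested members apart from a sparse PNP locus described below. Slc2a11 belongs to the family of sugar transporters, and a copy of it is needed in medaka for the pigment of xanthophores. Locus ncbi_110525343 stood at 35.5, 25.1 and 32.8 CPM in yellow mutant libraries and 14.1, 13.6 and 16.9 CPM in wild-type libraries. The lowest yellow mutant library was above the highest wild-type library, and the log2 fold change was 1.06 (SE 0.13, adjusted p = 2.13e-05). Locus ncbi_110535747 stood at 18.6, 19.2 and 18.8 CPM in the yellow mutant and 9.48, 8.94 and 9.75 CPM in the wild type, for a log2 change of 1.0 (SE 0.094, adjusted p = 2.21e-06). Both kept their calls in all 16 alternatives, with log2 fold changes between 0.96 and 1.26. The slc2a15a locus outside the rule (ncbi_110532603) stood at 52.8, 41.6 and 43.4 CPM in the yellow mutant and 23.3, 26.6 and 26.3 CPM in the wild type. It rose by 0.86 (SE 0.10, adjusted p = 1.61e-05) and also kept its call in all 16 alternatives.

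The other 4 slc2a11 loci held almost no reads. The copy that RefSeq names slc2a11a (ncbi_110494102) had 4 counts in the yellow mutant and 22 in the wild type, 19 of them in wild-type replicate 2. Its neighbour in the reference, ncbi_110494103, with 0 protein-coding genes between them, had 0 counts in the yellow mutant and 4 in the wild type, and slc2a11l (ncbi_110509888) had 1 in the yellow mutant and 14 in the wild type. Locus ncbi_110528318 had no count in any library. Among 45 tested relatives of the member transporters and enzymes, 14 were higher and 7 lower (median log2 fold change 0.21). The most abundant glucose transporter among them, Slc2a1 (RefSeq glut1a), fell by 0.89 (SE 0.13, adjusted p = 0.000116).

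**Figure D2:**
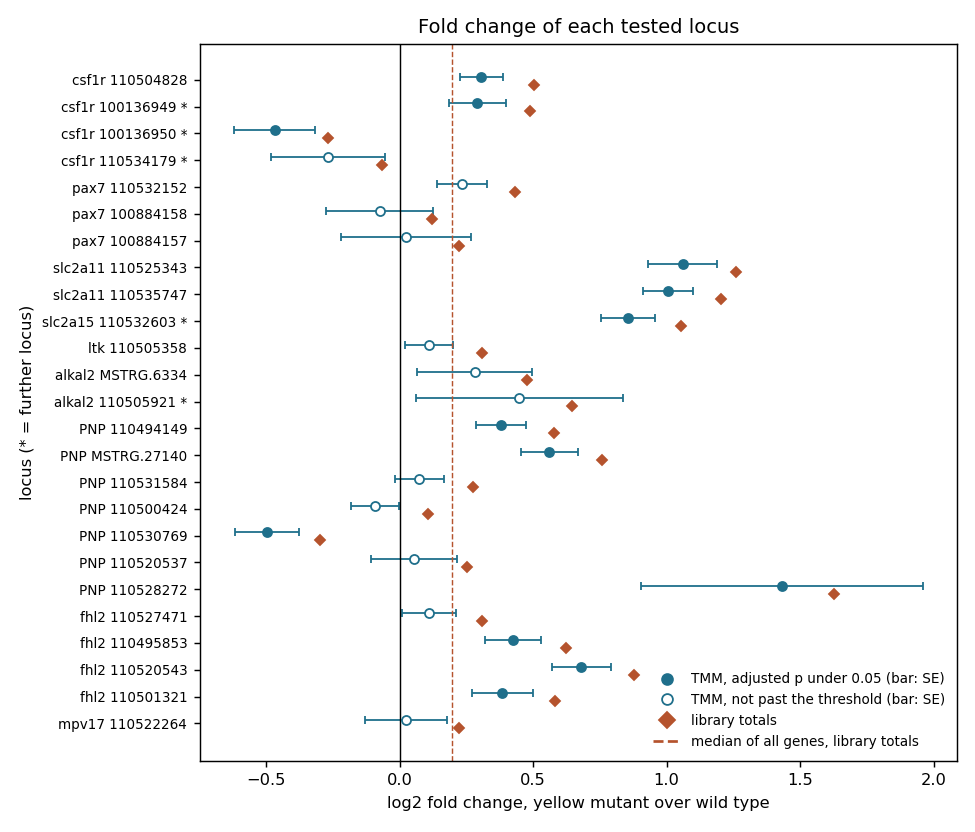
Log2 fold change, yellow mutant over wild type, of each tested locus with its SE under TMM scaling (circles, filled where the adjusted p is under 0.05) and with library totals (diamonds). The dashed line is the median of all genes with library totals, 0.20. Each diamond lies right of its circle, and PNP ncbi_110500424 and pax7a change sign between the scalings.

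The PNP loci moved unequally. The locus that RefSeq names pnp4a (ncbi_110494149), a purine nucleoside phosphorylase that marks zebrafish iridophores, stood at 197, 159 and 175 CPM in yellow mutant libraries and 131, 147 and 130 CPM in wild-type libraries. The groups did not overlap, and the log2 fold change was 0.38 (SE 0.093, adjusted p = 0.00463). The assembled locus MSTRG.27140 stood at 28.7, 24.9 and 24.9 CPM in the yellow mutant and 19.6, 18.4 and 15.2 CPM in the wild type (0.56, SE 0.11, adjusted p = 0.000762). Locus ncbi_110530769 went the other way. It stood at 18.4, 17.9 and 21.1 CPM in the yellow mutant and 21.9, 28.5 and 30.8 CPM in the wild type (-0.50, SE 0.12, adjusted p = 0.00437), and the call was lost in the 4 limma fits (adjusted p 0.0919 to 0.0936).

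A sparse PNP locus, ncbi_110528272, had 43 counts in the yellow mutant and 13 in the wild type. Its log2 fold change of 1.43 (SE 0.53, adjusted p = 0.041) lost the threshold in 8 of 14 alternatives (adjusted p 0.0537 to 0.165), and was 0.93 without wild-type replicate 1 (adjusted p = 0.165) and 2.15 without wild-type replicate 3 (adjusted p = 0.0227). Leaving out wild-type replicate 2 or any single yellow mutant library also ended the call (adjusted p 0.0646 to 0.133). The loci ncbi_110531584, ncbi_110500424 and pnp6 (ncbi_110520537) overlapped between phenotypes, at log2 fold changes of 0.07, -0.09 and 0.05 (adjusted p 0.438 to 0.809). Locus ncbi_110531584 passed with library totals (0.27, adjusted p = 0.0201) and in the 4 limma fits (adjusted p 0.0302 to 0.0327), and ncbi_110500424 was at 0.11 with library totals without passing. The locus ncbi_110495269 had 14 counts in the yellow mutant and 9 in the wild type, and pnp4b (ncbi_110486604) and ncbi_110506577 had none. Summed over all 10 PNP loci the log2 fold change was 0.23 (SE 0.088, adjusted p = 0.0452). That sum joins different genes, and pnp4a held the most counts in it (16486 over all libraries). The same kind of sum gave 0.99 for slc2a11 (adjusted p = 2.27e-06) and 0.29 for fhl2 (adjusted p = 0.0354). For pax7 it was 0.19 (adjusted p = 0.102) and for mpv17 0.03 (adjusted p = 0.908). Among the enzymes of purine recovery beside PNP, Aprt rose by 0.83 (SE 0.075, adjusted p = 1.53e-06), mtap rose by 0.37 (SE 0.084, adjusted p = 0.00322) and ada fell by 0.61 (SE 0.076, adjusted p = 2.79e-05).

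Of the fhl2 loci, which encode LIM-domain proteins that act with transcription factors and are linked to iridophores in cichlid egg spots, 3 of 4 tested rose. The locus that RefSeq names fhl2a (ncbi_110520543) stood at 40.5, 34.2 and 29.8 CPM in yellow mutant libraries and 23.6, 21.5 and 20 CPM in wild-type libraries, which is 0.68 on the log2 scale (SE 0.11, adjusted p = 0.000247). Locus ncbi_110495853 stood at 94.9, 68.7 and 82.2 CPM in the yellow mutant and 58.8, 59.6 and 64.6 CPM in the wild type (0.42, SE 0.10, adjusted p = 0.00499). The phenotypes did not overlap at either of these, nor at the third called locus. Locus ncbi_110501321 stood at 39.4, 27.5 and 31.9 CPM in the yellow mutant and 24.0, 25.6 and 26.0 CPM in the wild type (0.38, SE 0.11, adjusted p = 0.0149), and without yellow mutant replicate 1 it was at 0.24 (adjusted p = 0.0652). The most abundant locus, ncbi_110527471, stood at 162, 120 and 132 CPM in the yellow mutant and 123, 133 and 127 CPM in the wild type. Its groups overlapped (0.11, SE 0.10, adjusted p = 0.406), but it passed with library totals (0.31, adjusted p = 0.0179) and in the 4 limma fits. The fhl5 locus held 6 counts in the yellow mutant and 13 in the wild type. Fhl2 is also a muscle gene in mammals, and the muscle marker sums given with pax7 apply here too.

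Yellow mutant replicate 1 was the highest of its phenotype at 13 of the 20 tested members, replicate 2 at 3 and replicate 3 at 4, whereas over all tested genes each was the highest at 33.2% to 33.4%. Without yellow mutant replicate 1, 7 members were called higher and 1 lower. Over all genes that fit called 6015 higher and 6368 lower, against 6658 and 7079 with all libraries. Leaving out any other single library gave 8 to 10 members higher and 1 lower. The mpv17 locus with counts (ncbi_110522264) stood at 6.13, 4.84 and 5.32 CPM in yellow mutant libraries and 5.13, 5.72 and 5.15 CPM in wild-type libraries. It overlapped (log2 fold change 0.03, SE 0.15, adjusted p = 0.908), and the other mpv17 locus had no count. In all, 11 members were not tested: 4 without a count and 7 with 2 to 26 counts summed over the 6 libraries.

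Per unit of length the members spanned a wide range. By the authors' FPKM, pnp4a was highest in the yellow mutant at 114 ± 11.5 FPKM, followed by FHL2 ncbi_110527471 at 102 ± 15.1 FPKM, MSTRG.27140 at 75.6 ± 5.61 FPKM and FHL2 ncbi_110495853 at 55.5 ± 8.45 FPKM (SD, n = 3). In the wild type FHL2 ncbi_110527471 was highest at 82.1 ± 2.70 FPKM, followed by pnp4a at 76.6 ± 5.35 FPKM, MSTRG.27140 at 44.7 ± 6.39 FPKM and FHL2 ncbi_110495853 at 36.0 ± 1.40 FPKM (SD, n = 3). The ranges of pnp4a and of FHL2 ncbi_110527471 overlapped in both phenotypes, but their order was steady within libraries. There pnp4a was above FHL2 ncbi_110527471 in every yellow mutant library (126, 103 and 113 against 118, 88.7 and 97.8 FPKM). In every wild-type library pnp4a was the lower of these loci (75.1, 82.5 and 72.1 against 80.4, 85.2 and 80.6 FPKM). In the yellow mutant the ranges of csf1r1 ncbi_110504828 (19.9 ± 1.42 FPKM), PNP ncbi_110531584 (19.1 ± 1.20 FPKM) and FHL2 ncbi_110501321 (17.9 ± 3.14 FPKM) overlapped as well. The SLC2A11 locus ncbi_110525343 averaged 14.7 ± 2.46 FPKM in the yellow mutant and 6.25 ± 0.688 FPKM in the wild type, and ncbi_110535747 averaged 7.76 ± 0.196 FPKM in the yellow mutant and 3.37 ± 0.147 FPKM in the wild type (SD, n = 3). The xanthophore gene pax7 (ncbi_110532152) averaged 9.57 ± 0.194 FPKM in the yellow mutant and 7.56 ± 0.971 FPKM in the wild type (SD, n = 3). The iridophore receptor gene ltk averaged 4.97 ± 0.386 FPKM in the yellow mutant and 4.02 ± 0.182 FPKM in the wild type (SD, n = 3). These FPKM were used without TMM factors, and the median log2 change of all genes on them was 0.15 (limma, pseudocount 0.5). With TMM scaling the ltk libraries overlapped between the phenotypes.

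**Figure D3:**
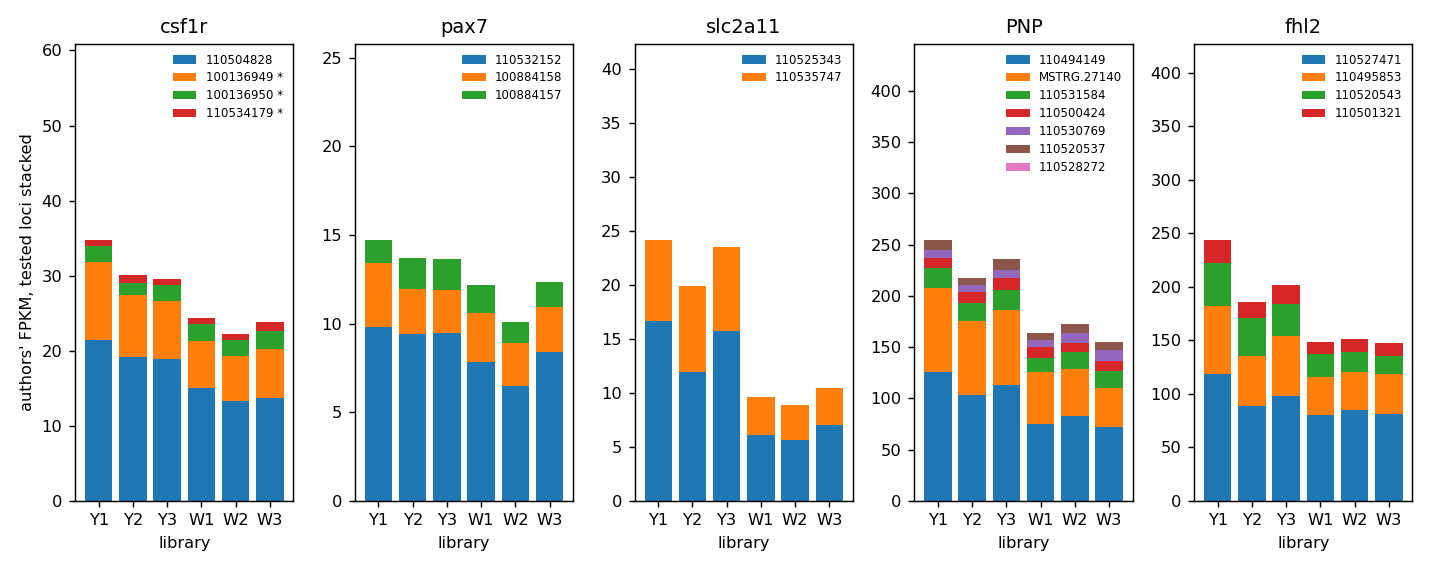
The authors' FPKM of the tested loci of 5 genes, stacked per library, with yellow mutant libraries Y1 to Y3 left of wild-type libraries W1 to W3. An asterisk marks loci outside the rule, and vertical scales differ between panels. Each of the 5 stacks is taller in every yellow mutant library than in any wild-type library. On this scale the median log2 change of all genes was also above 0. In each stack the same locus makes up the largest share in all libraries.

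Trout carry duplicated genes, and the balance between copies was compared within each library. Copies here are loci that share a deposited symbol, which can join different genes, such as pnp4a and pnp6 under PNP. The same may hold for the csf1r1 loci, where ncbi_110534179 has a product name of its own. The member csf1r1 locus held 63.2% of the FPKM summed over the 4 csf1r1 loci in the yellow mutant and 59.6% in the wild type, and ncbi_100136950 held 6.09% in the yellow mutant and 9.76% in the wild type (means of 3 libraries). FHL2 ncbi_110527471 held 48.3% of the fhl2 sum in the yellow mutant and 54.9% in the wild type, while fhl2a held 16.8% in the yellow mutant and 12.8% in the wild type. PNP ncbi_110530769 held 3.19% of the PNP sum in the yellow mutant and 5.67% in the wild type. Of 15 log2 ratios of a locus to the most abundant locus of its symbol, 8 reached the smallest p that an exact two-sided permutation test of 3 against 3 libraries allows, 0.1, so no ratio can pass 0.05 by that test. Ratios of a symbol share their denominator, and the share over all loci was not computed. An edgeR test set each locus against the change of its symbol as a whole, the locus itself included (diffSpliceDGE, chosen after seeing the data). It called 4 of 22 loci, where 16.8% of all loci so tested were called. Relative to its whole symbol, csf1r1 ncbi_100136950 was lower by 0.71 on the log2 scale (adjusted p = 0.00326) and PNP ncbi_110530769 by 0.73 (adjusted p = 4.27e-05). By the same measure fhl2a was higher by 0.39 (adjusted p = 0.0356). The fourth was slc2a15a (0.33, adjusted p = 0.0349), where the other loci share only its deposited symbol. The SLC2A11 copies ncbi_110525343 and ncbi_110535747 showed no call, their log2 ratio differing by -0.05 between the phenotypes with overlapping libraries. The sources used here do not give how reads shared between similar copies were counted, so a shift between copies and a shift in read assignment cannot be told apart.

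**Figure D4:**
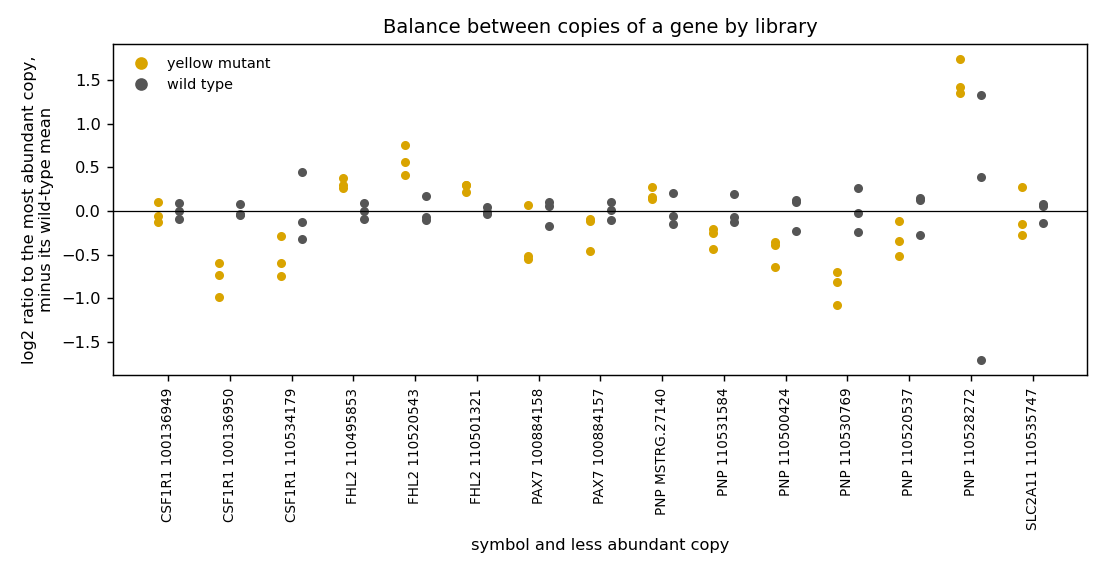
Log2 ratio of each less abundant copy to the most abundant copy of its symbol, minus the wild-type mean of that ratio, per library, with yellow mutant points left and wild-type points right. The yellow mutant points of CSF1R1 ncbi_100136950 and PNP ncbi_110530769 lie below the wild-type points and those of FHL2 ncbi_110520543 above them.

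Markers of the same cells outside the 10 genes did not follow a single direction. Of 4 further xanthophore loci, SCARB1 ncbi_110523398, a receptor for carotenoid uptake, rose by 0.73 (SE 0.14, adjusted p = 0.000765) and SCARB1 ncbi_100136324 fell by 0.90 (SE 0.13, adjusted p = 8.44e-05), a call lost in the 4 limma fits (adjusted p 0.0671 to 0.0721). The xanthophore marker aox5, deposited as AOX1, stood at 6.88, 4.84 and 4.45 CPM in yellow mutant libraries and 15.3, 11.7 and 12.9 CPM in wild-type libraries, without overlap (log2 fold change -1.31, SE 0.16, adjusted p = 2.48e-05). The pteridine enzyme gene xdh did not pass (0.71, SE 0.47, adjusted p = 0.236). Leaving out wild-type replicate 2 brought it past the threshold (1.58, adjusted p = 0.0146). Among 6 iridophore loci, TFEC ncbi_110500235, a transcription factor of zebrafish iridophore precursors, rose by 0.47 (SE 0.10, adjusted p = 0.00228), the other TFEC locus ncbi_110490235 did not pass (0.43, SE 0.17, adjusted p = 0.0531), and the tight junction gene TJP1 at ncbi_110506437 was at -0.26 with overlapping groups (SE 0.093, adjusted p = 0.0382). That call was lost in 10 of 16 alternatives (adjusted p 0.0897 to 0.717), among them DESeq2, library totals and the fits without yellow mutant replicate 1 or 3 or wild-type replicate 2 or 3. The second TFEC locus passed in 9 of 16 alternatives, among them library totals (0.63, adjusted p = 0.0056) and the fits without wild-type replicate 3 (0.70, adjusted p = 0.00209) or yellow mutant replicate 3 (adjusted p = 0.0498). Of 58 tested fate and pattern regulators, 12 were higher and 9 lower, and the median log2 change was 0.14. The most abundant were EDNRB (-0.10, not past the threshold), TFAP2C (-0.72, adjusted p = 9.75e-05), TFAP2A (0.32, adjusted p = 0.00359) and TJP1 ncbi_100750227 (-0.09, not past the threshold). For comparison, nerve and Schwann cell markers had 4 loci higher and 6 lower of 18 tested, with a summed level of 402 to 488 CPM in the yellow mutant and 457 to 480 CPM in the wild type.

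**Figure D5:**
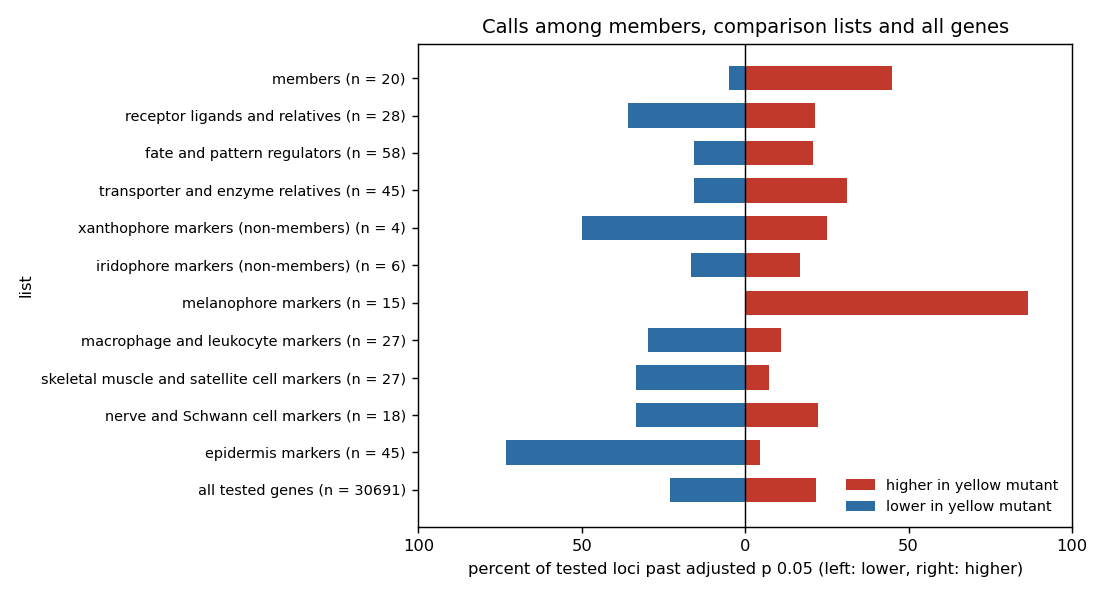
Percent of tested loci past an adjusted p of 0.05 that were higher (right) or lower (left) in the yellow mutant, for the members, 10 comparison lists and all tested genes. The members stand at 45.0% higher and 5% lower, all tested genes at 21.7% and 23.1%, and the melanophore markers at 86.7% and 0%.

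In the authors' deposited table, 8 members have an FDR under 0.05 with a log2 fold change above 0 and 1 with a log2 fold change below 0. The member called higher here but not there is the sparse PNP locus ncbi_110528272, with an FDR of 0.128 in the authors' deposited table. The DESeq2 adjusted p obtained here was also 0.128 at that locus, and at csf1r1 ncbi_110504828 both values were 0.00538. The deposited FDR rests on the same counts and is not a separate check. The deposited log2 fold change of csf1r1 ncbi_110504828 was 0.51, against 0.31 with DESeq2. The deposited value equals the log2 ratio of the authors' mean FPKM there, 19.9 in the yellow mutant and 14.0 in the wild type.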

How the data were processed

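The authors deposited raw read counts for each locus and library with the authors' FPKM, the authors' log2 fold changes, and the authors' p-values and FDR, per the file headers. Bowtie2 2.2.8 and TopHat2 2.1.1 were used per the submitters' processing notes; counting tool, strand use, treatment of shared reads, genome build and the authors' test are, in the sources used here, not given, so no coordinates are printed. RefSeq names come from assembly USDA_OmykA_1.1 (35457 loci matched; 28 of 31 members had an entry and 10 a gene name).

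Counts of the 6 libraries were filtered with filterByExpr (30691 of 39799 loci with a count), scaled with TMM and compared with glmQLFit and glmQLFTest, without covariates (edgeR 4.0.16 in R 4.3.3; alternatives used DESeq2 1.42.0 and limma 3.58.1). The pipeline was tested on simulated data. Libraries of a phenotype differed beyond sampling noise (chi-square per degree of freedom 3.88 to 23.1). Members and lists were chosen with earlier results of these data known. All tested members are named, and of each list at most the 4 loci with the highest mean CPM, unless stated; lists match deposited or RefSeq symbols, and 2 loci with symbol CSF1 but product KIAA1109 were left out.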

Additional observations from a re-analysis of the deposited data

How the results depend on the processing

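Of the 10 called members, 7 passed in every alternative, 3 lost the call in at least 1, and no called member turned direction in any of them; 4 of the 10 that did not pass did so in at least 1. Matching by symbol only left 11 tested members, of which 5 were higher (45.5%) and 0 lower. The lower count was also 0 in the 4 limma fits (pseudocounts 0.5, 0.1 and 1, and FPKM of at least 0.5), 2 without a filter, and 2 with the further loci (added after seeing the data). Members called higher numbered 13, 13, 13 and 12 in those limma fits, against 9 in the main fit. Leaving out 1 library gave 7 to 10 members higher and 1 lower, with 5602 to 6015 of all genes higher and 6072 to 6582 lower. Over all genes, 10805 were higher and 4544 lower with library totals, and in the limma fits 10357 and 4269, 10308 and 4245, 10361 and 4279, and 10142 and 4220. With library totals, lower loci numbered 4 among receptor ligands, 3 among transporters, 5 among regulators (24 higher) and 0 among iridophore markers (2 higher), and higher loci 9 among macrophage, 5 among muscle and 6 among epidermis markers. DESeq2 gave 0 lower iridophore and 2 higher nerve loci. Matching by deposited symbol only gave 1 lower xanthophore and 1 higher macrophage locus. The copy test added after seeing the data gave -0.71, 0.39 and -0.73, which the exact test could not call. The causes were not tested.

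Whether replicate numbers pair the libraries is not settled by these data. Same-numbered deviations correlated only at 0.080, 0.014 and 0.056. Yet each library correlated best with its own number, a hint from the data and not the design. With the replicate block, 9 members were higher and 1 lower, and 13868 genes were called in place of 13737; pax7 ncbi_110532152 passed (adjusted p = 0.0439) and PNP ncbi_110528272 did not (0.0537). Depth limits the 7 untested members with counts (2 to 26 summed over the libraries), too few for a firm comparison. The fit without a filter called 2 members lower, against 1 in the main fit, and the added call fell on 1 of these sparse loci.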
